A study of Rattus norvegicus with 6 samples.

Results

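The calyceal junction is the contact that holds a type I hair cell (HCI) of the vestibular epithelium to the calyx, the cup-shaped afferent terminal that encloses it. The 6 genes of this contact described here, *Cntnap1*, *Cntn1*, *Nfasc*, *Epb41l3*, *Tnc* and *Ptprz1*, were picked by symbol from a table of 32883 rat genes. Each symbol had 1 row, and all 6 were among the 14352 genes that passed a filter on low counts and were tested. RNA-seq was available from 3 control rats on plain water and from 3 rats (IDPN-4wk) whose water held 20 mM 3,3'-iminodipropionitrile (IDPN) for 4 weeks. IDPN is an ototoxic nitrile that damages hair cells (HCs). All were adult male Long-Evans rats, and each library pooled the 2 utricles and 6 cristae of 1 animal.

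The junction resembles the paranode, the seal between an axon and the myelinating cell beside a node of Ranvier. At paranodes, CASPR1 (encoded by *Cntnap1*) and contactin-1 (*Cntn1*) form a complex in the axon membrane that binds neurofascin (*Nfasc*) of the opposite cell, and a FERM-domain adaptor (*Epb41l3*) ties the tail of CASPR1 to the spectrin cytoskeleton. In the vestibular epithelium, CASPR1 marks the calyx side of the contact and tenascin-C (*Tnc*) is a matrix glycoprotein around the calyx, while PTPRZ1 is a receptor tyrosine phosphatase that can bind both contactin-1 and tenascin-C. The cell bodies of the calyx afferents sit in the vestibular ganglion, outside the dissected epithelium.

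Library totals ran from 13358678 to 18561991 counts, and levels are given as CPM (counts scaled to library size after TMM, a correction for library makeup), as mean ± SD over n = 3 libraries per group. A gene with 0 counts could still lie at 0.155 to 0.216 CPM, the worth of 3 counts. Replicates were not copies of each other, since their counts differed beyond sampling noise (chi-square per degree of freedom 7.85 to 15.5 within groups). All 6 libraries carry the same batch label, but in the sample titles the IDPN-4wk animals share an animal-code prefix that no control has. What the prefix stands for is not given in the sources used here, and it cannot be told apart from the treatment. IDPN-4wk replicate 3 was the highest library of its group for each of the 6 genes, and the calls that turn on it are given without it.

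Of the 6 genes, *Ptprz1*, *Cntn1* and *Nfasc* fell, to 37.0%, 54.2% and 63.8% of their control level, and 0 rose. A call required a Benjamini-Hochberg adjusted p under 0.05 in edgeR's quasi-likelihood test and a fold change over 1.5, by which 6.62% of all genes tested fell and 3.09% rose. *Tnc*, at 68.6% of control, passed the adjusted p but not the fold threshold. Thus 4 of the 6 passed the adjusted p at any fold, all lower, beside 19.4% of all genes in either direction and 11.5% lower. The same 4 had groups that did not overlap, beside 37.8% of all genes in either direction and 19.3% lower. *Epb41l3* (88.3%) and *Cntnap1* (96.4%) passed neither threshold. In bulk tissue, fewer cells of a type and less RNA per cell cannot be told apart.

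**Figure D1:**
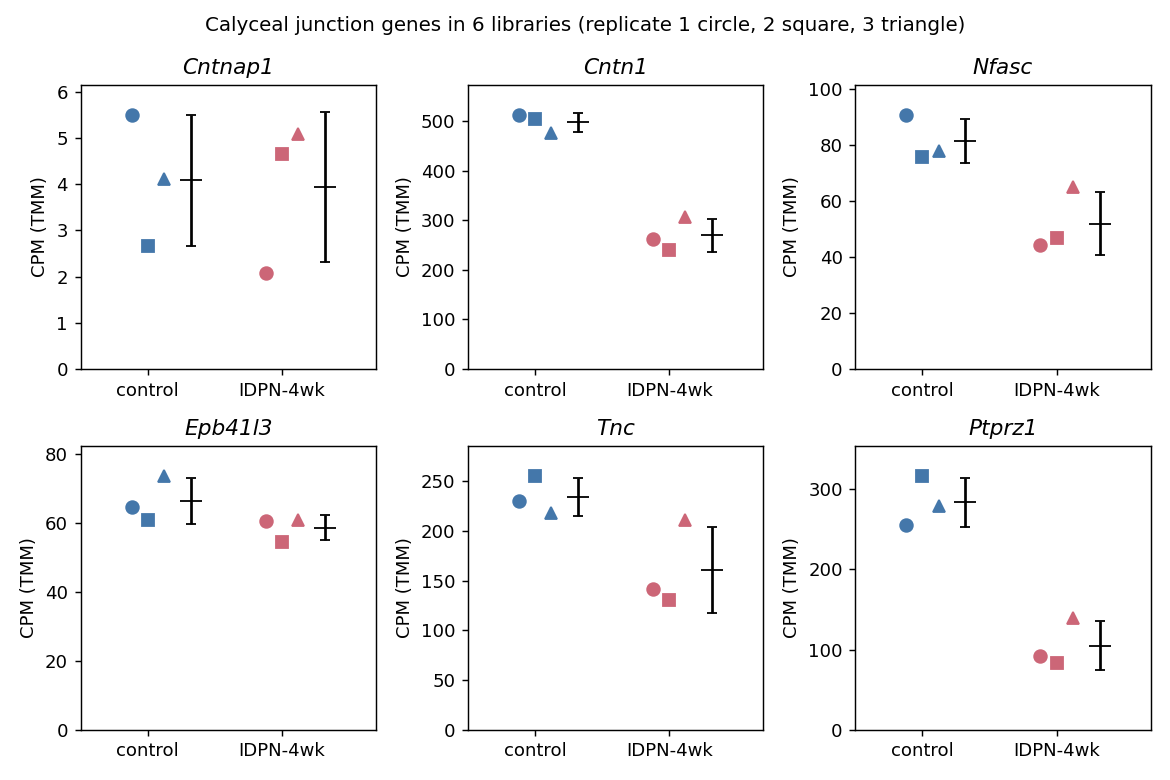
Level of each calyceal junction gene (CPM after TMM) in the 3 control (blue) and 3 IDPN-4wk (red) libraries, with circle, square and triangle for replicates 1, 2 and 3 and the mean ± SD (n = 3) in black. The groups do not overlap for *Cntn1*, *Nfasc*, *Tnc* and *Ptprz1*, and overlap for *Cntnap1* and *Epb41l3*.

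RefSeq promoter windows (build GRCr8, 250 bases before to 50 after a start) matched 4 of the 6 genes with 5 windows, 2 of them for *Nfasc*. The windows of *Cntn1* (chr7:125252060-125252359, plus strand), *Tnc* (chr5:82476082-82476381, minus strand) and *Epb41l3* (chr9:116583010-116583309, plus strand) are printed 5′ to 3′ to set side by side a gene that fell, one that passed only the adjusted p and one that passed neither threshold. Capitals mark matches on either strand, none of which overlapped. The motif of the core promoter element that binds the TATA-binding protein was searched as TATAAA. The E-box, bound by basic helix-loop-helix factors, was searched as CANNTG. The GC box, bound by factors of the SP family, was searched as GGGCGG.
Cntn1 promoter: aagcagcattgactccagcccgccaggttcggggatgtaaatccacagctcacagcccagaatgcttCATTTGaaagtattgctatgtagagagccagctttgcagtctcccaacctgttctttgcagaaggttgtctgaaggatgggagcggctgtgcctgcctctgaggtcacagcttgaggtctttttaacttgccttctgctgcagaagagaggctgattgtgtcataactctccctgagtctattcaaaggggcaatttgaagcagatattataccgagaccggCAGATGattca
Tnc promoter: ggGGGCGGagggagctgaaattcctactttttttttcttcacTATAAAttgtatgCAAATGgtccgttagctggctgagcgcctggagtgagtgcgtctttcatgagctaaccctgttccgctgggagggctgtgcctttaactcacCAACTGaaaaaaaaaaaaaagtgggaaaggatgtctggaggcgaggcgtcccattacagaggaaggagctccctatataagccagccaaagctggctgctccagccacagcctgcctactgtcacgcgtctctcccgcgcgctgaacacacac
Epb41l3 promoter: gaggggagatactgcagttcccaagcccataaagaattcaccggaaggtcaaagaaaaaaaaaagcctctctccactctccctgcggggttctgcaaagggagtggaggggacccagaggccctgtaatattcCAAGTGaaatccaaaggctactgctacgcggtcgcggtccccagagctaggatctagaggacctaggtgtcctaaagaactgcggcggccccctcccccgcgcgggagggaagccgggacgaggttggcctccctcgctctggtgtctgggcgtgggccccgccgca
The *Tnc* window held 1 match to the first motif, 2 to the E-box and 1 to the GC box. Its match to the first motif lies near the 5′ end of the window, far from the start. The stretch tatataag, nearer the start, is not an exact match and so is not marked. The *Cntn1* window held 2 matches to the E-box and the *Epb41l3* window held 1, with 0 to the other motifs. Of 33469 rat windows of this length, 14.2% held the first motif, 72.1% the E-box and 33.1% the GC box, so an E-box is present in most promoters. A match is a run of letters and not a binding site.

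The axonal pair of the complex comes first. *Cntnap1* (ENSRNOG00000020277) encodes CASPR1. In the controls it stood at 5.49, 2.66 and 4.11 CPM, against 2.08, 4.64 and 5.09 CPM after IDPN. These levels rested on 29 to 90 counts, and the treated animals held both the lowest and the second highest value. Its log2-Fold change was -0.05 (SE 0.37, edgeR adjusted p 0.947), with a 95% interval from -0.85 to 0.76. A fall of the size seen for *Nfasc* lies within this interval and could not be told from 0 for *Cntnap1* given the spread between these libraries, while the value of *Cntn1* lies just past its lower bound. Its sign turned without control replicate 1 (0.23), without IDPN-4wk replicate 1 (0.24) and under scaling by library size only (0.060). In RefSeq's GRCr8 annotation the chemokine receptor gene *Ccr10* overlaps *Cntnap1*, the library protocol keeps no strand, and *Ccr10* had 15 to 48 counts per library.

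*Cntn1* (ENSRNOG00000004438) encodes contactin-1, the GPI-anchored partner of CASPR1. In the controls it stood at 511, 504 and 476 CPM, against 262, 240.4 and 306 CPM after IDPN. Every treated library lay below every control, by more than the range within either group. *Cntn1* fell from 497 ± 18.8 to 269.5 ± 33.3 CPM (log2-Fold change -0.88, SE 0.09, edgeR adjusted p 1.24e-04). It was called in all 12 alternatives, and its log2-Fold change ran from -0.995 to -0.81 when any 1 library was left out. Of all genes tested, 5.33% had a lower log2-Fold change.

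Within a library, the log2 ratio of *Cntnap1* to *Cntn1* counts averaged -6.99 ± 0.53 in control and -6.19 ± 0.69 after IDPN. The groups overlapped (exact two-sided permutation p 0.3), and the difference of 0.795 ran from 0.51 without control replicate 2 to 1.19 without IDPN-4wk replicate 1. With 3 animals against 3, this test cannot go below 0.1.

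The adhesion partner and the adaptor follow. *Nfasc* (ENSRNOG00000030515) encodes a glial neurofascin of the paranode and a neuronal form of the node, which counts per gene do not separate. In the controls it stood at 90.6, 75.7 and 78.0 CPM, against 44.3, 46.6 and 64.9 CPM after IDPN. The groups did not overlap, and IDPN-4wk replicate 3 lay nearest to the controls. *Nfasc* fell from 81.4 ± 8.02 to 51.9 ± 11.3 CPM (log2-Fold change -0.65, SE 0.14, edgeR adjusted p 0.00784). That value was close to the fold threshold of 0.585 on the log2 scale. It lost its call without control replicate 1 (-0.566), IDPN-4wk replicate 1 (-0.556) or IDPN-4wk replicate 2 (-0.577), at edgeR adjusted p values from 0.0278 to 0.0412, and under scaling by library size only (-0.543, adjusted p 0.0136).

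*Epb41l3* (ENSRNOG00000016724) encodes the adaptor beneath the junction. In the controls it stood at 64.6, 60.7 and 73.5 CPM, against 60.5, 54.4 and 60.7 CPM after IDPN. The groups overlapped, with treated values at the lower end of the control range or under it. Its log2-Fold change was -0.18 (SE 0.09, edgeR adjusted p 0.206). The 95% interval, from -0.39 to 0.02, excluded a fall as large as the fold threshold, which that of *Cntnap1* did not.

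The matrix protein and the receptor complete the set. *Tnc* (ENSRNOG00000058645) encodes tenascin-C, whose splice forms are summed here. In the controls it stood at 230.3, 255 and 218 CPM, against 141, 131 and 210.5 CPM after IDPN. IDPN-4wk replicate 3 was just under the lowest control and the other treated libraries were far below it. The mean went from 234 ± 19.1 to 161 ± 43.3 CPM (log2-Fold change -0.54, SE 0.15, edgeR adjusted p 0.0298). Without IDPN-4wk replicate 3 *Tnc* passed both thresholds (log2-Fold change -0.80, edgeR adjusted p 1.97e-04). Without any other single library its edgeR adjusted p lay between 0.0539 and 0.119, and with the Wald test of DESeq2 the adjusted p was 0.0939.

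*Ptprz1* (ENSRNOG00000006030) had the lowest log2-Fold change of the 6. In the controls it stood at 256, 316 and 279 CPM, against 91.7, 83.1 and 139.8 CPM after IDPN. The groups were far apart, with IDPN-4wk replicate 3 the highest treated library. *Ptprz1* fell from 284 ± 30.6 to 105 ± 30.6 CPM (log2-Fold change -1.44, SE 0.17, edgeR adjusted p 2.46e-04). It was called in all 12 alternatives, among them a test against the fold threshold itself (glmTreat of edgeR, adjusted p 0.00319). Its log2-Fold change reached -1.71 when IDPN-4wk replicate 3 was left out, and was highest, at -1.29, when replicate 2 of that group was. Of all genes tested, 2.07% had a lower log2-Fold change.

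**Figure D2:**
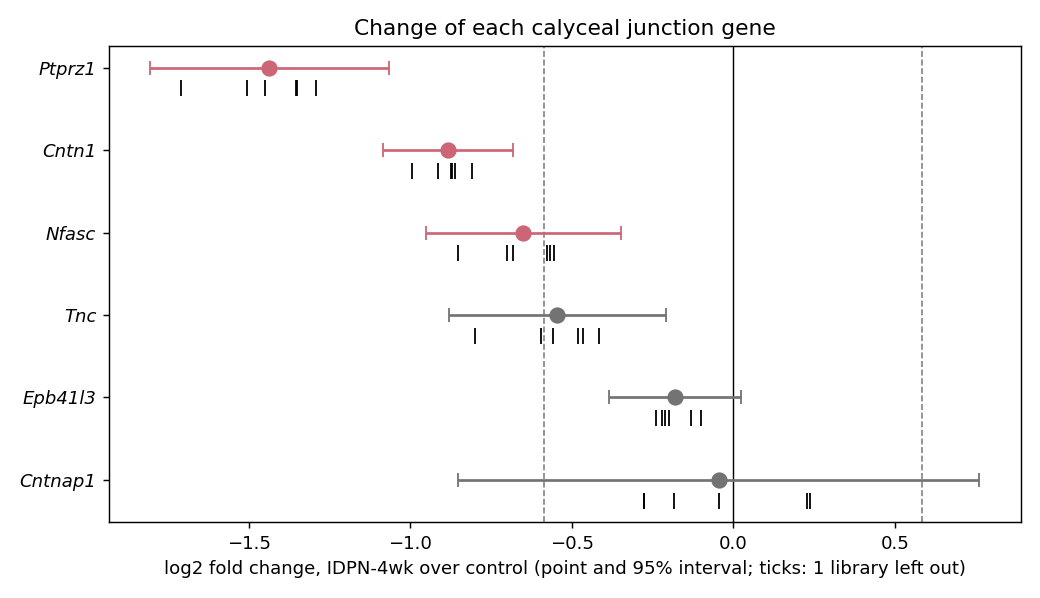
Log2-Fold change of each calyceal junction gene (IDPN-4wk over control, edgeR) with its 95% interval, red where called lower and grey where not. Black ticks are the values with 1 library left out and dashed lines mark a fold change of 1.5. The interval of *Cntnap1* runs from -0.85 to 0.76, while those of *Ptprz1* and *Cntn1* lie wholly past the threshold.

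Profiles over the 6 libraries can be set side by side as a description. Pearson's r of log2 CPM was 0.99 for *Cntn1* with *Ptprz1*, 0.94 for *Cntn1* with *Nfasc*, 0.94 for *Tnc* with *Ptprz1* and 0.93 for *Nfasc* with *Tnc*. It was 0.93 for *Nfasc* with *Ptprz1* and 0.90 for *Cntn1* with *Tnc*. For *Epb41l3* with *Cntn1*, *Nfasc*, *Tnc* and *Ptprz1*, r was lower, at 0.69, 0.66, 0.58 and 0.69. The points share libraries and treatment, so the distance between groups enters every r. For *Cntnap1* with the other 5 genes, r lay between 0.10 and 0.43.

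The ratio of 2 genes within a library does not depend on scaling. Of the 15 pairs among the 6 genes, 7 had ratios whose groups did not overlap, beside 55.9% for a member with any other gene tested. By member that share was 91.9% for *Ptprz1*, 85.2% for *Cntn1*, 65.7% for *Nfasc*, 49.6% for *Tnc*, 38.2% for *Epb41l3* and 4.59% for *Cntnap1*. All 5 pairs with *Ptprz1* were among the 7, a count near the background for this gene. The other 2 were *Cntn1* with *Epb41l3* (difference -0.71) and *Cntn1* with *Tnc* (-0.32, or -0.20 without IDPN-4wk replicate 3).

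Of the 15 pairs, the one with the smallest pooled SD was *Tnc* and *Ptprz1*, picked after the values were seen. Their log2 ratio was -0.15, -0.31 and -0.36 in the controls, against 0.62, 0.65 and 0.59 after IDPN. The difference of 0.89 compares with a pooled SD of 0.079, although both genes varied widely among the treated animals. The exact two-sided permutation p was 0.1, the smallest possible, and 0.214 after Benjamini-Hochberg adjustment over the 15 pairs. The other ratios to *Ptprz1* were higher after IDPN by 1.37 for *Cntnap1* (pooled SD 0.67), 1.29 for *Epb41l3* (0.30), 0.80 for *Nfasc* (0.23) and 0.58 for *Cntn1* (0.20), with the same exact permutation p. For *Nfasc* to *Tnc* the groups overlapped, at a difference of -0.09 (exact permutation p 0.6) that ran from -0.21 without control replicate 2 to near 0 without control replicate 1.

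**Figure D3:**
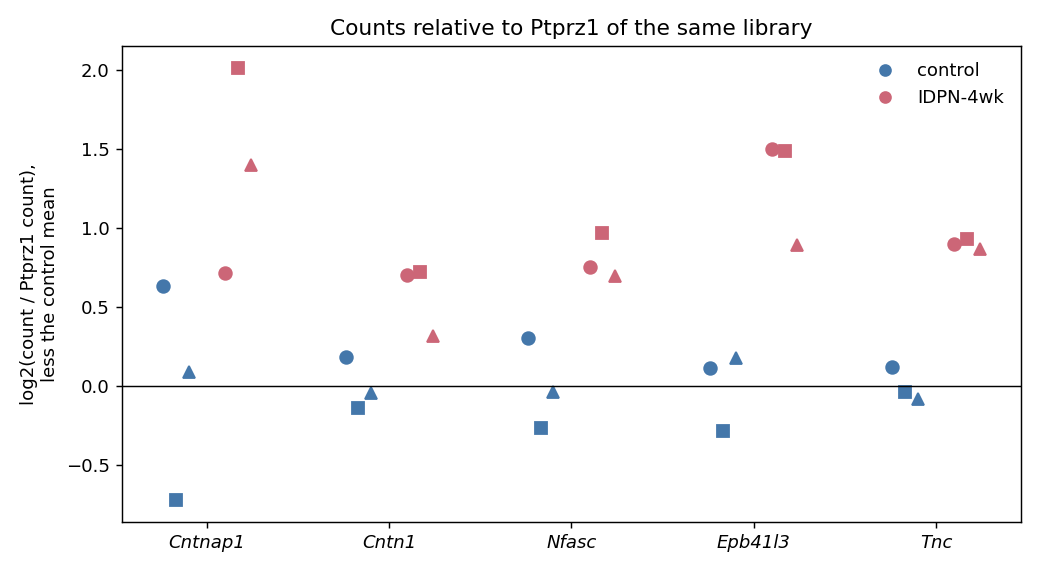
Log2 of each gene's count over the *Ptprz1* count of the same library, less the control mean, for control (blue) and IDPN-4wk (red) libraries, with circle, square and triangle for replicates 1, 2 and 3. Every treated point is above every control point for all 5 genes, and the treated points lie closest together for *Tnc*.

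Relatives and partners of the 6 genes were read from 8 lists with 65 genes, of which 52 were tested. Among these, 13 fell and 1 rose, or 26.9% called, beside 9.71% of all genes tested. Their median log2-Fold change was -0.30, beside 0.02 over all genes. The lists were written with earlier results of these data known, so these shares describe the lists and test no enrichment.

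Of the relatives of CASPR1 and contactin-1, 4 were tested and 3 fell. *Cntn4*, an axonal contactin, fell from 11.7 ± 0.808 to 1.83 ± 0.654 CPM (log2-Fold change -2.68, SE 0.26, edgeR adjusted p 7.88e-05). *Cntnap4*, a neuronal relative of CASPR1, fell from 6.78 ± 2.96 to 0.884 ± 0.386 CPM (log2-Fold change -2.97, SE 0.43, edgeR adjusted p 9.56e-04). *Cntn2*, the contactin of the juxtaparanode, fell from 3.35 ± 0.716 to 1.60 ± 0.425 CPM (log2-Fold change -1.06, SE 0.33, edgeR adjusted p 0.0443), but lost its call in 5 of the 6 fits without 1 library, at edgeR adjusted p from 0.0523 to 0.146, and kept it only without IDPN-4wk replicate 3. It was also lost under scaling by library size only (0.0543) and with DESeq2 (0.0512). *Cntn5* had at most 8 counts in a library, and *Cntn6*, *Cntnap5b* and *Cntnap5c* had 0 counts in all 6. *Cntnap2*, *Cntnap3* and *Cntnap5a* were not analysed here.

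In the L1 family of adhesion molecules, to which neurofascin belongs, 2 of the 3 other members fell. *Nrcam*, a partner at nodes, fell from 160.4 ± 10.6 to 93.5 ± 18.4 CPM (log2-Fold change -0.78, SE 0.13, edgeR adjusted p 0.00185). *Chl1*, which guides axons, fell from 82.8 ± 5.77 to 42.9 ± 6.81 CPM (log2-Fold change -0.95, SE 0.12, edgeR adjusted p 3.07e-04). Of 8 ankyrins and spectrins, 1 fell. This was *Ank3*, encoding ankyrin-G, the anchor of neurofascin and sodium channels at nodes, which fell from 101 ± 3.88 to 59.0 ± 2.47 CPM (log2-Fold change -0.77, SE 0.07, edgeR adjusted p 8.06e-05). Of the 6 relatives of *Epb41l3*, 0 passed edgeR's thresholds and 1 had an unadjusted p under 0.05. *Epb41l2* and *Epb41*, named for the highest mean CPM of this list, had log2-Fold changes of -0.09 (SE 0.09) and -0.06 (SE 0.09).

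Of 11 tested tenascins, tenascin-binding integrins and matrix proteoglycans, 2 fell. *Acan*, encoding aggrecan, fell from 49.6 ± 2.17 to 11.8 ± 7.46 CPM (log2-Fold change -2.07, SE 0.31, edgeR adjusted p 0.00106), with a log2-Fold change of -2.73 when IDPN-4wk replicate 3 was left out. *Itga8*, an integrin subunit that can bind tenascin-C as a heterodimer, fell from 26.2 ± 6.68 to 16.1 ± 2.72 CPM (log2-Fold change -0.71, SE 0.19, edgeR adjusted p 0.0228). *Itga8* lost its call without control replicate 1 (-0.48), IDPN-4wk replicate 1 (-0.66) or IDPN-4wk replicate 2 (-0.63), at edgeR adjusted p from 0.0824 to 0.0851. Among 6 ligands, substrates and the paralogue of PTPRZ1, only the paralogue *Ptprg* fell, from 41.0 ± 9.54 to 21.6 ± 2.46 CPM (log2-Fold change -0.93, SE 0.17, edgeR adjusted p 0.00322). The ligand *Ptn*, encoding pleiotrophin, had a log2-Fold change of -0.26 (edgeR adjusted p 0.0444), under the fold threshold.

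Of 14 tested channels and organisers of nodes, juxtaparanodes and the calyx, 4 fell and 1 rose. *Gldn*, encoding gliomedin, a Schwann cell ligand of neurofascin, fell from 181 ± 19.7 to 99.0 ± 7.12 CPM (log2-Fold change -0.87, SE 0.09, edgeR adjusted p 1.33e-04). The potassium channel genes *Kcnq5* and *Kcnh7* fell from 3.26 ± 1.39 to 0.533 ± 0.194 CPM and from 7.30 ± 2.64 to 2.13 ± 0.550 CPM, with log2-Fold changes of -2.63 and -1.76 (edgeR adjusted p 0.00310 and 0.00440). *Kcnh2*, another potassium channel gene, rose from 3.88 ± 0.714 to 8.66 ± 1.76 CPM (log2-Fold change 1.16, SE 0.23, edgeR adjusted p 0.00580). The remaining fall was *Kcna2* (-0.85). *Kcna2* and *Ptn* were chosen after their values were seen.

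**Figure D4:**
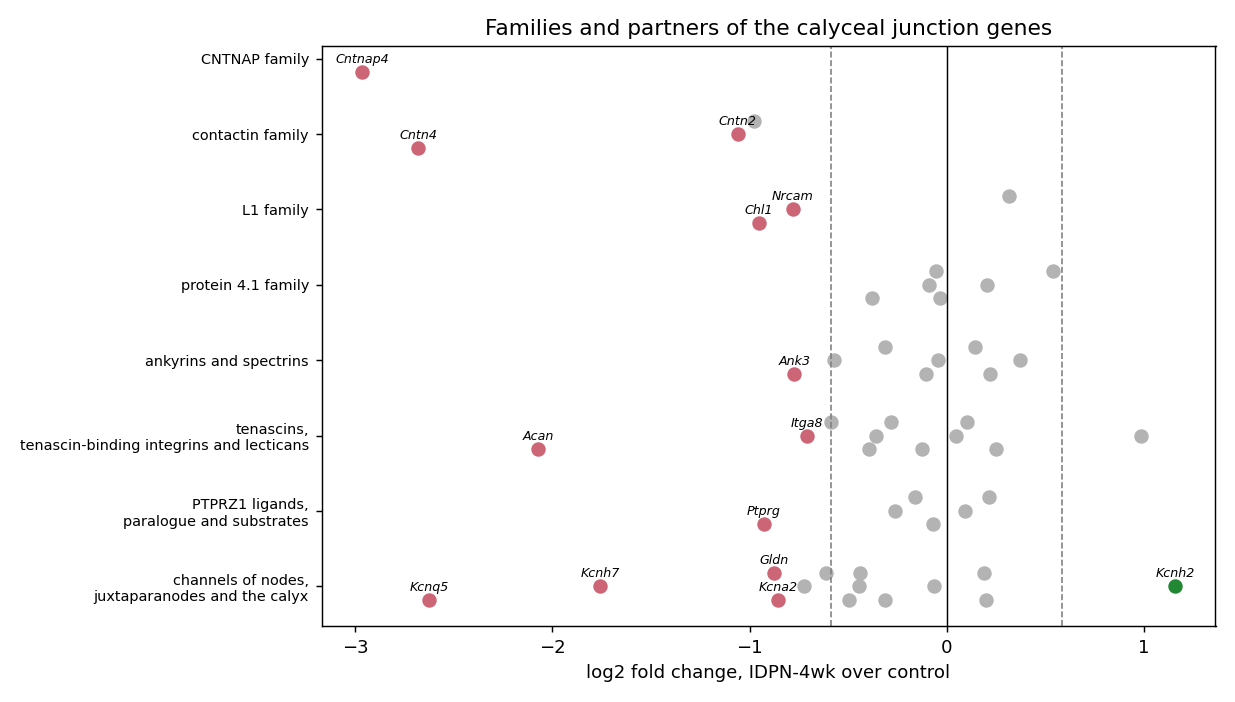
Log2-Fold change (IDPN-4wk over control, edgeR) of the 52 tested genes in 8 lists of relatives and partners, red where called lower, green where called higher and grey otherwise, with dashed lines at a fold change of 1.5. The relatives of CASPR1 and contactin-1 lie between -2.97 and -0.98, and those of *Epb41l3* between -0.38 and 0.54.

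Markers of the cells that could carry these transcripts were read from the same fit. Over all genes tested, 6.62% fell, 3.09% rose and the median log2-Fold change was 0.02. HC markers summed to 2325 to 2503 CPM per control library and 1271 to 1609 CPM after IDPN, with 9 of 10 lower, of which 4 fell, and a median log2-Fold change of -0.53. *Otof*, encoding otoferlin, had the largest share of this sum in the controls and fell from 896 ± 18.2 to 393 ± 87.3 CPM, so that the ratios to the sum move with it. For supporting cell markers the sums were 10504 to 11530 and 5929 to 7197 CPM, with 8 of 10 lower, of which 3 fell, and a median of -0.33. *Otog*, encoding otogelin, made up most of this sum in the controls and fell from 6262 ± 363 to 3199 ± 561 CPM, so the sum and the ratios to it rest largely on 1 gene. *Otof* and *Otog* were chosen after their values were seen. Schwann cell and myelin sums overlapped, at 9523 to 12036 and 6462 to 9597 CPM. Of these 12 markers, 11 were lower and 1 fell, a share near that of all genes. Their median was -0.44, or -0.28 without IDPN-4wk replicate 2. Neuron sums were 114 to 122 and 88.9 to 94.0 CPM, with 2 of 8 tested markers fallen and 3 risen, and a median of -0.37. No marker of these lists was at 0 in every library. Their part in the changes of the 6 genes was not tested.

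Relative to the summed HC markers of its own library, *Ptprz1* was lower after IDPN by a log2 difference of -0.69 (pooled SD 0.19), without overlap. *Epb41l3* was higher by 0.60 (pooled SD 0.18), also without overlap. Both had an exact two-sided permutation p of 0.1, adjusted 0.267 over 24 ratios. *Cntn1* (-0.11), *Nfasc* (0.11), *Tnc* (0.20) and *Cntnap1* (0.68) overlapped between the groups, at exact permutation p values of 0.3, 0.4, 0.2 and 0.3. With 1 library left out, the difference to HC markers ran from -0.82 to -0.58 for *Ptprz1* and from 0.51 to 0.70 for *Epb41l3*. It was less settled for the others, where it ran from -0.16 (without IDPN-4wk replicate 1) to -0.068 (IDPN-4wk replicate 2) for *Cntn1* and from 0.028 (control replicate 2) to 0.20 (control replicate 1) for *Nfasc*. For *Tnc* it ran from 0.095 (IDPN-4wk replicate 3) to 0.30 (IDPN-4wk replicate 2), and for *Cntnap1* from 0.37 (control replicate 2) to 1.02 (IDPN-4wk replicate 1). Relative to supporting cell, Schwann cell and neuron markers, the difference for *Ptprz1* was -0.72, -1.08 and -1.08, and for *Cntn1* -0.14 (-0.089 without control replicate 1), -0.50 and -0.50, none with overlap. *Epb41l3* was higher relative to supporting cell markers by 0.57, without overlap. Its groups overlapped relative to neuron markers (0.21) and Schwann cell markers (0.21, or 0.090 without IDPN-4wk replicate 2). For *Nfasc*, *Tnc* and *Cntnap1* the groups overlapped relative to each of these 3 lists. Of the 24 ratios to marker lists, 9 were without overlap. Relative to any other single gene tested, 91.9% of ratios were without overlap for *Ptprz1*, 85.2% for *Cntn1* and 38.2% for *Epb41l3*. A lack of overlap for *Ptprz1* and *Cntn1* is thus not particular to these marker lists.

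Other lists had medians of -0.19 (stroma, 7 genes), -0.14 (endothelium, 4), 0.14 (macrophage, 7) and -0.77 (dark cell and melanocyte, 4) on the log2-Fold change scale. By the same thresholds 1 stroma marker fell and 1 rose, 1 macrophage marker rose, 1 dark cell or melanocyte marker fell and 0 endothelium markers were called, where 1 had an edgeR adjusted p under 0.05 and 2 an unadjusted p under 0.05. Beside these counts, 6.62% of all genes tested fell and 3.09% rose. The medians of these lists rest on few genes and moved with single libraries. The dark cell and melanocyte median was -1.10 without IDPN-4wk replicate 2. The macrophage median turned to -0.20 without IDPN-4wk replicate 1 and was 0.34 without replicate 2 of that group. The stroma median was -0.055 without IDPN-4wk replicate 3 and -0.31 without replicate 2. The endothelium median was -0.22 without IDPN-4wk replicate 2, -0.072 without replicate 1 and -0.070 without control replicate 2. Stroma sums, given because stroma cells can make *Tnc*, were 864 to 1044 CPM in control and 823 to 924 CPM after IDPN.

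Genes with the most similar profile were found by the root mean square difference, over the 6 libraries, of log2 CPM less each gene's control mean. *Cntn1* was close to *Matn2* (0.035) and *Ace* (0.058), with r of 0.992 or more. *Ptprz1* was most like *Dnah7* (0.069), *Bdnf* (0.084) and AABR07069282.1 (0.092). The nearest genes were *Tdrd1*, *Invs* and *Mmachc* for *Nfasc* (0.063 to 0.067) and *Hey2*, *Col11a1* and *Gng11* for *Tnc* (0.073 to 0.084). They were *Radil*, *Ppa2* and *Atp5s* for *Epb41l3* (0.025 to 0.043). *Cntnap1* had only more distant neighbours, *Nkain4*, *Adora1* and *Kctd4* (0.14 to 0.22).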

How the data were processed

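RNA-seq was done on vestibular epithelia of 3 control and 3 IDPN-4wk rats. Per the labels, 6 to 11 ng of total RNA was reverse transcribed with an oligo-dT primer (SMART-seq2) and amplified by 8 and then 12 cycles of PCR. The authors mapped reads to Rnor6.0 with STAR 2.5.3a and estimated counts per gene with RSEM (version 1.3.0 in the submitters' processing notes). The deposited expected counts were whole numbers, so rounding changed none. Reads carried no molecular identifiers, so floors cover counting error only, and RSEM shares reads among similar genes.

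Counts were filtered (filterByExpr, minimum count 10, minimum total 15), scaled with TMM and compared with glmQLFit and glmQLFTest of edgeR 4.0.16 in R 4.3.3, after a test on simulated data. Genes at an adjusted p under 0.05 over 14352 genes and a fold change over 1.5 were called, as in the study, which used DESeq2 (here 1.42.0, as an alternative). SE and 95% intervals came from the quasi F statistic. CPM is not scaled by transcript length, so it served between genes only to choose which to name and to sum markers. Ratios of counts within a library were compared with exact permutation tests. Groups came from the treatment label, and 0 columns belonged to other samples. Replicate numbers follow accession order and pair nothing. The labels name no litters or cages, and an animal-code prefix in the titles separates the groups, so p-values measure the spread between these animals and cannot tell treatment from what the prefix marks.

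Members and lists were chosen with earlier results of these data known. Named genes were the members, up to 4 called genes of each partner list by smallest p (otherwise the 2 of highest mean CPM), counts for marker lists, and the 3 genes of mean CPM over 1 most like each member in profile. Alternatives were DESeq2 size factors, upper quartile, library size alone, no filter, DESeq2, glmTreat and leaving out each library. Values of a few genes that the rule names or the lists hold are not reported here.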

Additional observations from a re-analysis of the deposited data

How the results depend on the processing

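The log2-Fold changes of *Cntn1*, *Epb41l3* and *Ptprz1* kept their direction and their side of the thresholds in all 12 alternatives. With 1 library left out they ranged from -0.995 to -0.81, from -0.24 to -0.10 and from -1.71 to -1.29. *Nfasc* lost its call with library size alone (-0.54) and under glmTreat (-0.65, adjusted p 1.00), and ranged from -0.85 to -0.56 with 1 library left out. *Tnc* ranged from -0.80 to -0.41 and, of the 12 alternatives, was called only without IDPN-4wk replicate 3. *Cntnap1* ranged from -0.28 to 0.24, being positive when control replicate 1 (0.23) or IDPN-4wk replicate 1 (0.24) was left out, and was 0.060 with library size alone, which moved the median of all genes from 0.02 to 0.13. Called genes numbered 1394 (950 lower, 444 higher), from 1085 to 1581 with 1 library left out. Higher genes were 762 with library size alone, where lower genes were 780. Under glmTreat called genes were 453 (354 lower, 99 higher), and 7 partner genes, all lower, against 14 with 13 lower, since *Cntn2*, *Itga8*, *Nrcam*, *Ank3*, *Ptprg*, *Kcna2* and *Kcnh2* did not pass it. No paired analysis was possible because the labels give no replicate numbers. *Cntnap1* had the widest interval of the 6 genes, with at most 90 counts in a library and values that scattered within both groups, and the parts of depth and of animals in this were not tested.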

Other observations

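The neuron marker list did not move as one. *Gap43*, encoding a growth-associated protein of axons, fell from 9.90 ± 2.76 to 0.452 ± 0.398 CPM, and *Snap25*, encoding a part of the vesicle release machinery, from 23.0 ± 1.51 to 8.54 ± 2.39 CPM. *Prph* and *Nefh*, which encode neuronal intermediate filaments, rose from 0.553 ± 0.223 to 3.27 ± 0.932 CPM and from 0.446 ± 0.293 to 1.88 ± 0.757 CPM, and *Uchl1*, encoding a neuronal deubiquitinase, rose from 14.98 ± 2.37 to 25.9 ± 3.71 CPM. The filament genes *Nefl* and *Nefm* had lower values after IDPN, at 35.5 ± 2.23 CPM and 29.6 ± 1.04 CPM in control against 26.3 ± 2.05 CPM and 20.6 ± 3.04 CPM, without overlap and under the fold threshold (log2-Fold changes -0.43 and -0.52, edgeR adjusted p 0.0157 and 0.0158). The log2-Fold changes ran from -4.43 (*Gap43*, edgeR adjusted p 1.13e-04) to 2.57 (*Prph*, edgeR adjusted p 0.00190). In the controls *Prph* had 5, 11 and 8 counts and *Nefh* had 12, 5 and 3. After IDPN *Gap43* had 2, 6 and 14 counts. The sizes of these changes thus rest on few counts in 1 group, some of them at or under the floor of 3 counts. These genes were chosen after their values were seen.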
